A study of Mus musculus with 60 samples.

Results

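The comparison described here set untreated mouse embryonic stem cells (mESCs) whose endogenous CTCF carries the substitutions Y226A and F228A, called the YF-AA line, against untreated mESCs with unmutated, degron-tagged CTCF, called the CTCF-AID line. Its members were chosen by label: the 2 control libraries of the YF-AA line and the 2 non-stranded control libraries of the CTCF-AID line, 4 of the 56 EU-seq libraries of the series used here. EU-seq sequences only RNA made while the uridine analogue 5-EU was present, so that counts over exons and introns follow nascent transcription. Genes with a mean count above 20 in either group were kept, 15653 of 27665 representative transcripts, after mitochondrially encoded transcripts were left out.

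In the YF-AA line, a cassette with a puromycin marker, GFP and the FKBP12F36V degron was placed before the mutated Ctcf of E14TG2a cells, and individual colonies were picked and genotyped. In the CTCF-AID line, Ctcf is fused to GFP and to the auxin-inducible degron, and the line came from another laboratory. Neither degrader was given to these libraries: both lines carry a tag on CTCF, but not the same one. Both were grown in N2B27 medium with LIF and with inhibitors of MEK (PD0325901) and of GSK3 (CT-99021), and the 5-EU pulse lasted 20 min at a concentration of 0.5 mM. The study noted that the growth of YF-AA cells appeared slower than that of CTCF-AID cells. Line, clone, tag, mutation and batch change together between the groups and cannot be told apart, and the study calls its libraries biological replicates without saying what was separate. All p-values below measure the spread between libraries, which may be technical.

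CTCF is a zinc-finger protein that binds insulators and many promoters. It halts the cohesin complex as cohesin extrudes chromatin, which sets the ends of loops and domains, and the 2 substituted residues lie in the part of its N terminus that contacts cohesin. The protein can still bind DNA without that contact. The study depleted this mutant acutely to separate the anchoring of loops from other roles of CTCF. For differences between the untreated lines, it proposes primary and secondary effects together as likely. The stretch of the gene that holds the substituted codons is shown because it is the designed difference between the lines. RefSeq gives it in the first of 10 coding exons of Ctcf, on the plus strand of GRCm38.p6 (mm10) at chr8:105664414-105664470, as codons 218 to 236 of a protein of 736 residues, with the 2 substituted codons in capitals:
Ctcf codons: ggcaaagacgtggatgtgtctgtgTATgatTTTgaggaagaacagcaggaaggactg
The capitals encode Y226 and F228 in the reference. The count table names its columns for this line Y227A instead of Y226A. The residue between them is D in the reference, so the name given in the sample labels is used here.

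The CTCF-AID libraries held 13587611 and 12906427 counts, and the YF-AA libraries 4027449 and 10401709, so the first YF-AA library is the shallowest of the 4. All 13 mitochondrial transcripts had a count of 0 in both YF-AA libraries and made up 2.67 and 2.84% of counts in the CTCF-AID libraries, which is why they were left out of library sizes and tests. Between the libraries of a group, log CPM (counts scaled to a common library size, per 1000000) correlated with r = 0.986 for YF-AA and 0.992 for CTCF-AID over genes. A second pair of CTCF-AID controls, made with strand information, served as an alternative. Those 2 libraries differed more from each other than the other pairs did (r = 0.970), and also in Y-linked genes, with 17.3 CPM of Uty in the first and 121 CPM in the second.

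Nascent transcription differed between the lines at many genes in both directions. With edgeR's quasi-likelihood test and Benjamini-Hochberg adjustment over all genes tested, 2448 genes were called, which is 15.6% of the 15653 tested: a gene was called at an adjusted p under 0.05 and a difference of at least 2-fold after the median difference of expressed genes was subtracted. Of these, 845 (5.4%) were higher and 1603 (10.2%) were lower in the YF-AA line. Among the 9581 expressed genes, those above 15 TPM (transcripts per 1000000, here over the gene body), 628 (6.55%) were called, 292 higher (3.05%) and 336 lower (3.51%). The median fold was 2.55 for the called higher genes and 3.05 for the lower ones. More than 4-fold differences were met at 158 higher and 503 lower genes, and more than 10-fold ones at 33 and 101. At an adjusted p under 0.05 alone, without the fold, 7473 genes passed, 3840 higher and 3633 lower. The split between directions depended on the control libraries: with the stranded CTCF-AID controls in place of the non-stranded ones, 1438 genes were higher and 832 lower, and with all 4 CTCF-AID controls 524 were higher and 835 lower.

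**Figure D1:**
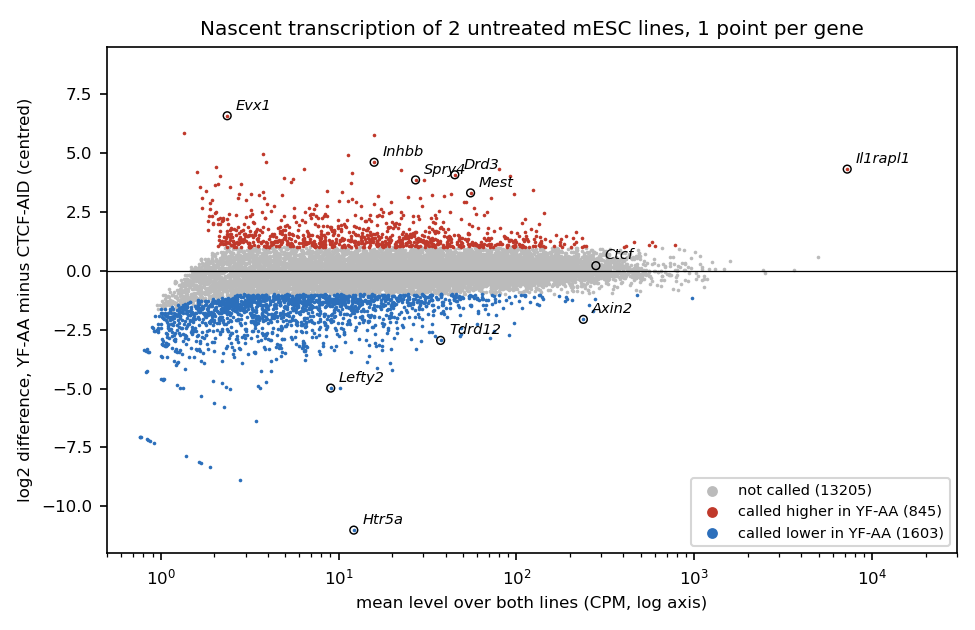
Centred log2 difference (YF-AA minus CTCF-AID) against the mean level over both lines in CPM, on a log axis, with 1 point for each of the 15653 genes tested. Red points are the 845 genes called higher, blue points the 1603 called lower and grey points those not called, and circled points are genes named in the text. Htr5a, Lefty2 and Axin2 lie far below 0 and Il1rapl1, Inhbb and Drd3 far above it, while Ctcf lies near 0.

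Most of the lower genes were weakly transcribed. Among the lowest 25% of tested genes by mean level, 25.8% were lower and 7.43% higher, with a median log2 difference of -0.45. Among the highest 25%, 0.894% were lower and 2.56% higher, with a median of 0.07. The count minimum bears on this: a mean of 20 counts equals 2.77 CPM in the shallower YF-AA group and 1.55 CPM in the CTCF-AID group. In the CTCF-AID group alone, it was passed by 880 of the 1603 lower genes and by 1024 genes not called. In the YF-AA group alone, it was passed by 110 of the 845 higher genes and by no other gene. For genes that passed in 1 group alone, the filter largely set the direction in advance. With the same CPM minimum in both groups, an alternative chosen after the values were seen, 853 genes were higher and 1387 lower. Of 929 long intergenic RNAs tested, 207 (22.3%) were lower and 54 (5.81%) higher.

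**Figure D2:**
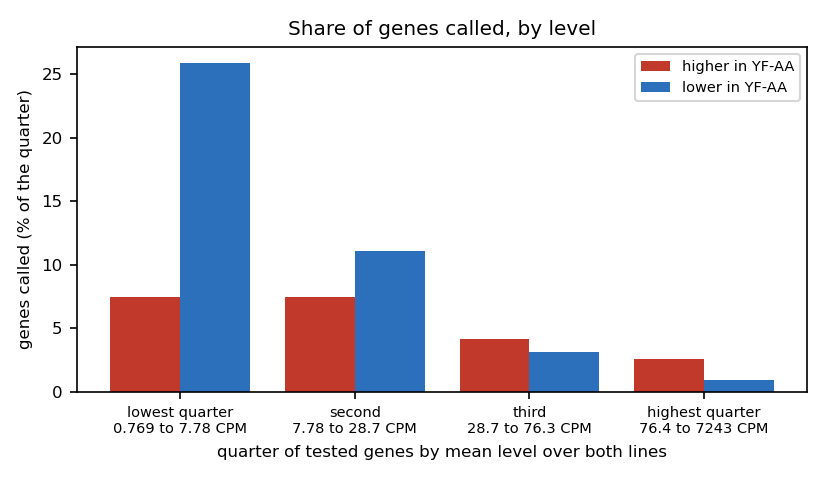
Share of genes called higher (red) and lower (blue) in the YF-AA line, in percent, for 4 equal bins of tested genes by mean level, whose CPM limits are given under each pair of bars. The share of lower genes goes from 25.8% in the lowest bin to 0.894% in the highest.

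How far other untreated lines and library types differ gives the scale for these counts. RAD21-AID mESCs, which carry unmutated, untagged CTCF and a degron on the cohesin subunit RAD21, differed from the same CTCF-AID libraries at 2920 genes (18.4%), 1900 higher and 1020 lower. The YF-AA libraries differed from those RAD21-AID libraries at 3073 genes (20.3%), 952 higher and 2121 lower. These comparisons share libraries with the main one and are not independent of it. The RAD21-AID line itself, in an additional experiment of 12 controls against the first 2 controls, differed at 1623 genes (10.3%), and the stranded and non-stranded CTCF-AID controls at 1105 (7.04%), of which 1100 were lower in the stranded libraries. The latter count rests on single libraries: it was 2992 without the first stranded library and 709 without the second non-stranded one.

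Ctcf itself was not called between the lines. It stood at 262 and 252 CPM in the CTCF-AID libraries and 302 and 303 CPM in the YF-AA libraries, a centred log2 difference of 0.22 (SE 0.07, edgeR adjusted p = 0.0076). The YF-AA libraries were both above the CTCF-AID ones, by less than the 2-fold minimum. Of 22 tested genes of CTCF, cohesin and their regulators, 21 were not called, with a median log2 difference of 0.04 beside -0.06 over all genes tested. Called genes made up 15.6% of all genes tested. Values for the core subunits were 0.01 for Rad21, -0.20 for Smc1a and 0.07 for Smc3. The alternative subunit Stag1 reached 0.57 (adjusted p = 1.4e-05) and Stag2 0.16 (adjusted p = 0.062). The loader Nipbl and the releasing factor Wapl gave 0.13 and -0.20. The sign of the differences of Nipbl, Stag2 and Rad21 depended on the libraries used, and the values are in the closing section.

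The exception was Ctcfl, the paralogue of Ctcf also called BORIS, which is normally active in the male germline. It had 0.7903 and 0.378 CPM in the CTCF-AID libraries and 9.42 and 9.27 CPM in the YF-AA libraries, a 15.3-fold difference (log2 3.94, SE 0.39, adjusted p = 6.7e-07). Both YF-AA libraries were above both CTCF-AID libraries, as for 843 of the 845 higher genes. The mean CTCF-AID count of Ctcfl lay below the minimum, so the filter largely set its direction in advance. The first RAD21-AID controls, with 3.44 and 1.71 CPM, lay between the lines.

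Genes of chromosome 16 were higher as a whole in the YF-AA line. Over its 509 tested genes the median log2 difference was 0.51, which is 1.43-fold, with quartiles of 0.16 and 0.76, and 80.9% of its genes lay above 0. The medians of the other autosomes and of chromosome X lay between -0.13 and 0.01. All 4 pairs of a YF-AA and a CTCF-AID library gave a median for chromosome 16 between 0.49 and 0.53. Each of its 10 windows of 10 Mb had a median from 0.36 to 0.78, against -0.61 to 0.65 over 250 windows elsewhere, of which 4 reached the lowest window of chromosome 16. These windows included a stretch of chromosome 9 from 80 to 90 Mb, with a median of 0.65, where the RAD21-AID line was also above the CTCF-AID line, by 0.96. Another was chromosome 13 from 20 to 30 Mb, with a median of 0.53, where the RAD21-AID line was below the CTCF-AID line, at -0.21. Of its 82 genes, 17 were called higher and 8 lower. It holds the histone genes named Hist1, so this window and the histone list described below share genes.

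The shift was not seen to the same degree in the RAD21-AID line. Measured over expressed genes and relative to the mean of the CTCF-AID libraries, chromosome 16 stood at 0.52 and 0.54 in the YF-AA libraries and at 0.11 and 0.16 in the first RAD21-AID controls. The untreated line in which one Ctcf allele lacks its N terminus and the other its C terminus, called the ΔN/ΔC line, stood at 0.57 and 0.56. The ΔN/ΔC libraries are stranded, unlike those they are set beside, so line and library type cannot be told apart there. The stranded CTCF-AID controls stood at 0.01 and 0.10 on chromosome 16. Chromosome 16 held 79 of the higher and 17 of the lower genes, and 766 higher and 1586 lower genes were called elsewhere. DNA copy number was not tested.

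**Figure D3:**
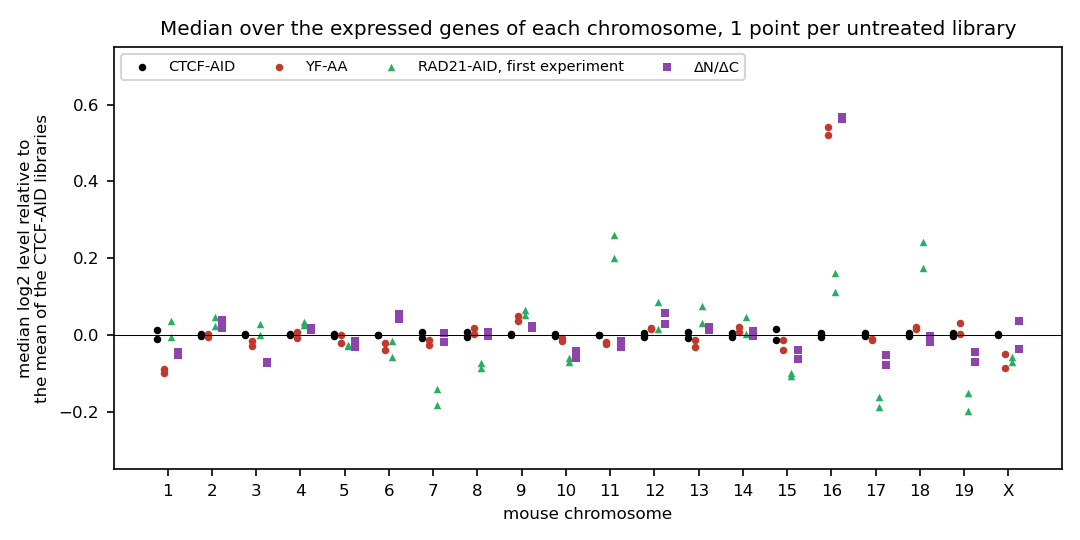
Median log2 level of the expressed genes of each chromosome relative to the mean of the CTCF-AID libraries, with 1 point for each of 2 untreated libraries of the CTCF-AID (black), YF-AA (red), RAD21-AID (green triangles) and ΔN/ΔC (purple squares) lines. On chromosome 16 the YF-AA libraries lie at 0.52 and 0.54 and the ΔN/ΔC libraries at 0.57 and 0.56, above every other chromosome drawn. The ΔN/ΔC libraries are stranded and the others drawn are not.

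Some genes of chromosome 16 differed far more than the chromosome did. Drd3, which encodes a dopamine receptor, had 5.68 and 4.23 CPM in the CTCF-AID libraries and 85.04 and 85.3 CPM in the YF-AA libraries (16.9-fold, adjusted p = 8.4e-12). It was low in the other lines too, with 10.2 and 11.2 CPM in the first RAD21-AID controls. Igsf11, an adhesion molecule, was 9.29-fold higher and Cyyr1, a membrane protein, 6.904-fold higher. Stxbp5l, a regulator of vesicle fusion, went from 2.44 and 1.97 to 18.6 and 17.1 CPM, but stood at 33.8 and 30.9 CPM in the RAD21-AID controls. Clic6, a chloride channel protein, was the exception among the 5 largest changes on this chromosome, at 6.73-fold lower (adjusted p = 4.3e-06), a call that ended when the stranded CTCF-AID controls were used.

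Genes of the Y chromosome separated the lines as well. Of 7 tested, 6 were higher in the YF-AA line: Uty, Ddx3y, Eif2s3y, Usp9y, Uba1y and Zfy1. The other one, Gm47283, was lower, with 1357 and 1304 CPM in the CTCF-AID and 596 and 609 CPM in the YF-AA libraries. The histone demethylase gene Uty had 19.2 and 17.3 CPM in the CTCF-AID libraries and 174 and 179 CPM in the YF-AA libraries (9.51-fold, adjusted p = 1.1e-12). The RNA helicase gene Ddx3y had 9.56 and 11.6 CPM in the CTCF-AID and 159.7 and 188 CPM in the YF-AA libraries (16.4-fold, adjusted p = 8.9e-13). For both genes the CTCF-AID libraries were the low ones, since the first RAD21-AID controls had 156 and 171 CPM of Uty and 62.5 and 68.7 CPM of Ddx3y. Uty was no longer called against the stranded CTCF-AID controls, of which the second had 121 CPM, and neither was Uba1y, at a log2 difference of 0.15. Both calls also ended with all 4 CTCF-AID controls. In bulk samples, fewer cells that transcribe a gene and less RNA per cell cannot be told apart.

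The genes with the largest increases were mostly silent or nearly so in the CTCF-AID line. Evx1, a homeobox gene of the primitive streak, had 0.0718 and 0 CPM in the CTCF-AID libraries and 4.46 and 4.93 CPM in the YF-AA libraries (adjusted p = 1.7e-06). Apln, which encodes the peptide ligand apelin, had 0 and 0.0756 CPM in the CTCF-AID and 1.98 and 3.35 CPM in the YF-AA libraries (adjusted p = 3.1e-05). Golga7b had 0.216 and 0.227 CPM in the CTCF-AID and 6.69 and 7.89 CPM in the YF-AA libraries. For these 3 genes the CTCF-AID libraries held at most 3 counts each, so the sizes of their folds are poorly fixed, and the call for Apln ended with all 4 CTCF-AID controls. Gm7073, on chromosome X, went from 0.503 and 0.605 to 28.02 and 34.2 CPM, and 1700013H16Rik from 0.647 and 0.756 to 23.3 and 20.5 CPM. The RAD21-AID controls had 22.5 and 29.1 CPM of Gm7073 and 52.9 and 55.6 CPM of 1700013H16Rik, so these 2 genes were low in the CTCF-AID line alone of the 3 lines. The call for 1700013H16Rik ended with the stranded and with all 4 CTCF-AID controls. Each gene of this paragraph lay below 1.55 CPM in the CTCF-AID libraries, the count minimum of that group. Each was tested on its YF-AA counts alone, so the filter largely set its direction in advance.

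Among expressed genes, Inhbb had the largest increase. This gene for a subunit of activin, on chromosome 1 at chr1:119415465-119422248 of mm10, had 1.87 and 0.605 CPM in the CTCF-AID libraries and 25.04 and 35.9 CPM in the YF-AA libraries, a 24.4-fold difference (log2 4.61, SE 0.31, adjusted p = 9.2e-09). It was also low in the RAD21-AID controls, at 1.46 and 0.7195 CPM. The mean CTCF-AID count of Inhbb lay below the minimum, so the filter largely set its direction in advance. Il1rapl1, a synaptic receptor gene on chromosome X, went from 689.9 and 678 to 12959 and 14645 CPM (19.9-fold, adjusted p = 1.8e-16). Its level was 9581 and 7579.8 CPM in the RAD21-AID controls but 21.2 and 81.9 CPM in the stranded CTCF-AID controls and 62.3 and 18.9 CPM in the stranded ΔN/ΔC controls. Within the CTCF-AID line, the stranded libraries were thus the low ones. Counts without strand can hold reads of the opposite strand, so this difference may not be one of the receptor gene. Which strand differed was not tested. Spry4, an inhibitor of ERK signalling, had 3.305 and 3.63 CPM in the CTCF-AID libraries and 48.3 and 53.2 CPM in the YF-AA libraries (14.5-fold, adjusted p = 5.3e-11). Its level was not stable within a line: the RAD21-AID controls had 3.76 and 3.87 CPM in the first experiment and a median of 49.97 CPM, with a range of 42.6 to 54.8, in the additional one.

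The other expressed genes with the largest increases held several roles. Nkx2-9, a homeobox gene of the neural tube floor, reached 3.47 and 2.66 CPM from 0.144 and 0.151. It lay below the count minimum in the CTCF-AID group, so the filter largely set its direction in advance. Scml2, a polycomb-related gene on chromosome X, went from 20.6 and 20.4 to 237 and 216 CPM, and Porcn, the enzyme that lipidates WNT ligands, from 2.802 and 0.907 to 18.3 and 19.8 CPM. Both were also high in the RAD21-AID controls, with 167 and 188 CPM of Scml2 and 9.39 and 10.5 CPM of Porcn. AU022751 reached 8.68 and 11.3 CPM. Gm28592 lies wholly on the opposite strand of Phlda1, so without strand its counts cannot be told from those of that gene. Mest and Ddx3y complete the 10 and are described with the imprinted and the Y-linked genes.

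The largest decrease was that of Htr5a, a serotonin receptor gene. It had 25.1 and 23.7 CPM in the CTCF-AID libraries and no count in either YF-AA library, which makes it at least 46.9-fold lower against the limit that a count of 0 allows, set at 3 counts per library (adjusted p = 1.6e-09). In all, 13 lower genes had no count in either YF-AA library. Gm14321, with 5.53 and 5.67 CPM in the CTCF-AID libraries, was at least 10.8-fold lower by the same limit. The RAD21-AID controls had 11.5 and 10.4 CPM of Htr5a in the first experiment and a median of 1.84 CPM in the additional one, so this gene also differed between experiments on one line.

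Decreases among expressed genes reached signalling, membrane and non-coding genes. Mir142hg, the host transcript of a microRNA of blood cells, had 17.4 and 22.6 CPM in the CTCF-AID libraries and 0 and 0.888 CPM in the YF-AA libraries (log2 -5.00, SE 0.39, adjusted p = 6.6e-08). Nfatc4, a calcium-regulated transcription factor, went from 25.4 and 27.98 to 2.73 and 1.48 CPM (14.5-fold lower, adjusted p = 9.8e-09). Cavin1, needed for caveolae, went from 28.2 and 26.6 to 1.98 and 2.37 CPM (12.4-fold lower, adjusted p = 4.8e-09), and Mapk8ip2, a scaffold of JNK signalling, from 15.95 and 18.5 to 1.74 and 1.68 CPM. Both YF-AA libraries lay below both CTCF-AID libraries in these 4 genes by the rule that picked them. The same held for 1602 of the 1603 lower genes. 2300002M23Rik, Gm11361, AC165951.5 and A230050P20Rik were between 8.82- and 39.5-fold lower.

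A group of genes on chromosome 7 differed in the same direction. All 6 tested members of the kallikrein family of secreted proteases were lower in the YF-AA line, and 5 of them lie within a stretch that starts at 43712567 and ends at 43803822. Klk8 had 6.54 and 8.62 CPM in the CTCF-AID libraries and 0.248 and 0.296 CPM in the YF-AA libraries, and Klk10 had 4.24 and 4.84 against 0 and 0.197 CPM. Klk13 and Klk9 had no count in the YF-AA libraries and were at least 6.45- and 6.34-fold lower. Klk11 and Klk1 complete the 6, with log2 differences of -2.79 and -1.85. All are weakly transcribed, and the CTCF-AID line was the higher one at a level below 10 CPM in each. Klk8, Klk10, Klk13 and Klk9 lay below the count minimum of the YF-AA group, 2.77 CPM, and were tested on their CTCF-AID counts alone. For these genes the filter largely set the direction in advance, so the shared direction is not a test of the group. In the lowest bin of tested genes by mean level, 25.8% were lower and 7.43% higher. The group was picked after its values were seen.

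**Figure D4:**
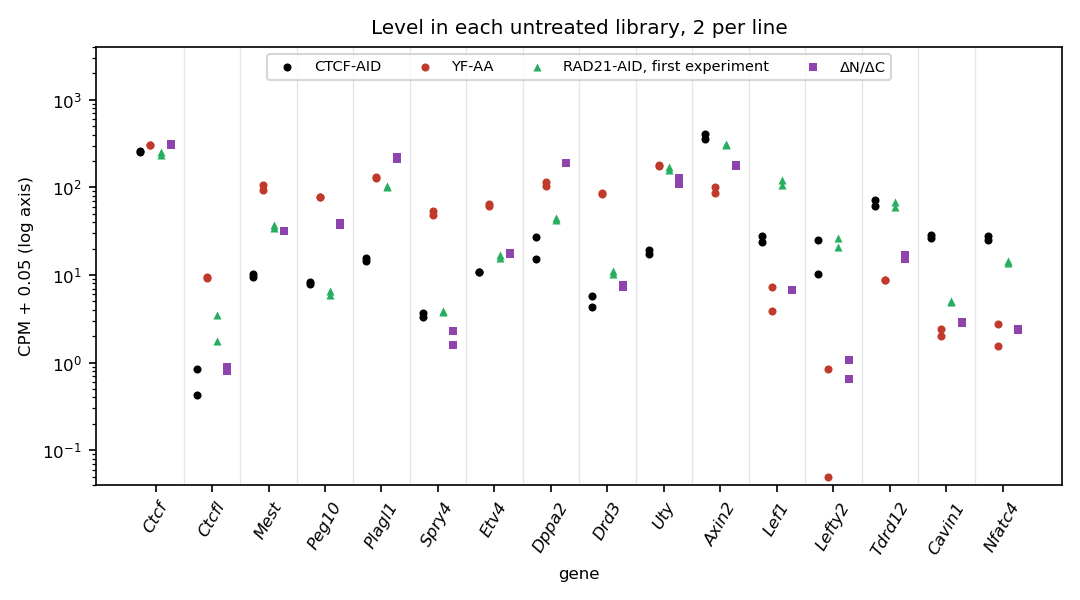
Level of 16 named genes in CPM, plotted as CPM + 0.05 on a log axis, with 1 point for each of 2 untreated libraries of the CTCF-AID (black), YF-AA (red), RAD21-AID (green triangles) and ΔN/ΔC (purple squares) lines. For each gene the YF-AA libraries lie on one side of the CTCF-AID libraries, for Ctcf by little, and the other 2 lines side with one or the other from gene to gene. The ΔN/ΔC libraries are stranded and the others drawn are not.

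Most genes of naive pluripotency were not called. Of 24 tested, 22 were not called, 2 were higher and none lower, and the median log2 difference was 0.04. Over all genes tested, 15.6% were called, 5.4% higher and 10.2% lower, and the lists below are to be read beside these shares. Pou5f1, which encodes OCT4, had 121 and 126 CPM in the CTCF-AID libraries and 195 and 218 CPM in the YF-AA libraries, a log2 difference of 0.73. Values were 0.24 for Nanog, -0.41 for Sox2 and 0.27 for Esrrb. The called genes were Nr0b1, an orphan nuclear receptor gene (2.19-fold, adjusted p = 2.4e-06), and Dppa2, which helps prime developmental genes for activation. Dppa2 lies on chromosome 16 and, for the longer of its 2 listed transcripts, went from 27.1 and 15.3 to 104 and 116 CPM (5.12-fold, adjusted p = 1.7e-08). It had 42.8 and 44.7 CPM in the RAD21-AID controls.

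Among genes of formative and primed pluripotency, the states that follow the naive one, more were higher than lower. Of 15 tested, 6 were higher and 2 lower, with a median of 0.70. The higher ones were Dnmt3b, a de novo DNA methyltransferase gene, the transcription factor genes Zic2, Zic5, Etv4 and Utf1, and Dusp6, an ERK phosphatase gene. Dnmt3b had 34.5 and 36.5 CPM in the CTCF-AID libraries and 116 and 113 CPM in the YF-AA libraries (3.18-fold, adjusted p = 1.6e-09), and 86.8 and 80.7 CPM in the RAD21-AID controls. Lef1 and Sall2 were lower, Sall2 not by DESeq2 nor without the second YF-AA library. Calls for Zic2, Zic5 and Dusp6 ended against the stranded CTCF-AID controls, and that for Utf1 without the first CTCF-AID library, at a log2 difference of 0.99. Of 13 tested genes of the two-cell-like state, a rare state of mESC cultures, 3 were lower (Zscan4d, Usp17le and Pramel6) and none higher. The share of lower genes over all tested was 10.2%, and none of these 3 calls held against the stranded controls.

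Targets of WNT signalling, which the GSK3 inhibitor of the medium activates, were mostly lower or not called in the YF-AA line. Of 15 tested, 7 were lower (Axin2, Lef1, T, Cdx2, Rnf43, Notum and Ccnd1) and 1 higher (Dkk1, a secreted inhibitor), with a median of -0.63. Axin2, a feedback inhibitor of the pathway, had 354 and 410.4 CPM in the CTCF-AID libraries and 101 and 86.99 CPM in the YF-AA libraries (4.18-fold lower, log2 -2.06, SE 0.10, adjusted p = 3.4e-10). The RAD21-AID controls had 308 and 311 CPM and the ΔN/ΔC controls, which are stranded, 173 and 179.6. The YF-AA libraries were thus the lowest of the 4 lines, across library types. Lef1, a transcription factor of the pathway, had 23.5 and 27.7 CPM in the CTCF-AID libraries and 7.19 and 3.85 CPM in the YF-AA libraries, but 106 and 122 CPM in the RAD21-AID controls. Ccnd1, the cyclin D1 gene, went from 91.97 and 107 to 35.2 and 37.3 CPM (2.77-fold lower, adjusted p = 4.2e-08). The calls for T, Cdx2 and Rnf43 were not made against the stranded controls, that for Notum not without the second YF-AA library and that for Dkk1 not with all 4 controls.

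Feedback genes of the ERK pathway, which the MEK inhibitor of the medium holds down, were in part higher. Of 15 tested, 5 were higher (Spry4, Dusp6, Etv1, Etv4 and Phlda1) and 1 lower (Ier3), with a median of 0.62. Etv4, an ETS transcription factor gene, had 10.7 and 10.9 CPM in the CTCF-AID libraries and 61.7 and 64.1 CPM in the YF-AA libraries (5.75-fold, adjusted p = 4e-10). The RAD21-AID controls, at 15.4 and 16.8 CPM, were closer to the CTCF-AID line. Phlda1 went from 1.44 and 0.756 to 7.19 and 7.89 CPM, in counts that it shares with Gm28592 on the other strand. Its mean CTCF-AID count lay below the minimum, so the filter largely set its direction in advance. Dusp6 and Etv1 were not called against the stranded controls, and neither was Ier3.

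Ligands and inhibitors of the TGF-beta family moved both ways. Of 20 tested, 2 were higher (Inhbb and Id3) and 7 lower, among them Lefty1, Lefty2, Bmp7, Id4, Fst and Tgfb1. The shares over all genes tested were 5.4% higher and 10.2% lower, and the median of the list was -0.09. Lefty2, an inhibitor of nodal, had 10.2 and 25.2 CPM in the CTCF-AID libraries and 0 and 0.789 CPM in the YF-AA libraries (log2 -4.98, SE 0.58, adjusted p = 4.2e-06). Its neighbour Lefty1 had 2.299 and 5.29 CPM and no count in either YF-AA library, at least 7.30-fold lower. Both varied within the CTCF-AID line, with 10.1 and 54.4 CPM of Lefty2 in the stranded controls, and the calls for Lefty1 and Fst were not made against them. The call for Fst also ended without the second YF-AA library. Id3, an inhibitor of differentiation induced by BMP, was higher at 44.4 and 48.4 CPM against 9.197 and 10.7 (4.61-fold, adjusted p = 6.5e-09), and Bmp7, a ligand, was 3.21-fold lower (adjusted p = 5.7e-07).

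Imprinted genes, which are transcribed mainly from the allele of one parent, included some of the largest increases. Of 36 tested, 9 were higher (Mest, Peg10, Plagl1, Peg3, Sgce, Snrpn, Snurf, Ppp1r9a and Kcnq1) and 2 lower (Slc22a18 and Sfmbt2). Their median was 0.15, and of all genes tested 5.4% were higher and 10.2% lower. Mest, a paternally expressed gene of the hydrolase family, had 10.3 and 9.53 CPM in the CTCF-AID libraries and 107 and 94.1 CPM in the YF-AA libraries (9.88-fold, log2 3.31, SE 0.13, adjusted p = 1.9e-11). Peg10, a gene derived from a retrotransposon and needed in the placenta, went from 8.19 and 7.79 to 78.6 and 77.3 CPM (9.59-fold, adjusted p = 2.4e-11). Plagl1, a zinc-finger transcription factor gene, went from 14.3 and 15.5 to 128 and 130.5 CPM (8.55-fold, adjusted p = 4.8e-12). For all 3 the YF-AA libraries lay far above the CTCF-AID libraries.

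The RAD21-AID controls placed these 3 genes differently. They had 36.95 and 34.2 CPM of Mest, between the lines, 6.47 and 5.94 CPM of Peg10, at the level of the CTCF-AID line, and 105 and 101 CPM of Plagl1, near the YF-AA line. Sgce, the paternally expressed neighbour of Peg10 on chromosome 6, was 2.88-fold higher (adjusted p = 0.00018). Sfmbt2 was not called without the first CTCF-AID library. Peg3, Snrpn and Ppp1r9a were not called against the stranded controls, and Kcnq1 and Ppp1r9a not without the first YF-AA library, at log2 differences of 0.89 and 0.98. Kcnq1 had 131 and 132 CPM in the CTCF-AID and 292 and 252 CPM in the YF-AA libraries but 7.18 and 8.93 CPM in the stranded CTCF-AID controls. Its counts without strand can hold reads of the antisense RNA Kcnq1ot1, and which strand differed was not tested. Promoters of Mest and Plagl1 are printed because imprinted promoters carry the CpG that imprints rest on and these genes are among the most changed of the list. Each sequence is the 250 bases before the RefSeq start on GRCm38.p6, at chr6:30737800-30738049 (plus strand) and chr10:13090582-13090831 (plus strand), with CpG dinucleotides in capitals:
Mest promoter: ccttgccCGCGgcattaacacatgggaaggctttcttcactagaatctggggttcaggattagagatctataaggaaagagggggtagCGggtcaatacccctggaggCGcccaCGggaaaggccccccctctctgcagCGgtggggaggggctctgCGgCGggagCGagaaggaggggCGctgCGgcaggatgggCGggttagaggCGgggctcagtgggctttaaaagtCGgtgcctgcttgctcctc
Plagl1 promoter: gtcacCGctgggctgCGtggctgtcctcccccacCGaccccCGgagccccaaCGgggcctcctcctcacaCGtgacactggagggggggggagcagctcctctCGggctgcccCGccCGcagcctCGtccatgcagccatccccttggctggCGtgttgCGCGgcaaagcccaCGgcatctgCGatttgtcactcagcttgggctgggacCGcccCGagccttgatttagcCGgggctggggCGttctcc
They hold 14 and 19 CpG, beside a median of 16 over tested genes with a matched promoter.

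Of 16 tested genes of DNA methylation, 3 were higher (Dnmt3b, Tet1 and Zfp57) and 1 lower (Mbd1), with a median of 0.20. All genes tested gave 5.4% higher and 10.2% lower. Tet1, a gene for an enzyme that oxidises methylated cytosine, had 515 and 470.1 CPM in the CTCF-AID libraries and 1022 and 1090.0 CPM in the YF-AA libraries (2.12-fold, adjusted p = 4.6e-09). Zfp57, a zinc-finger protein gene needed to keep imprints, had 400.1 and 383 CPM in the CTCF-AID and 786 and 843 CPM in the YF-AA libraries (2.05-fold, adjusted p = 5.3e-09). The call for Tet1 was not made against the stranded controls, where its log2 difference was 0.97, and that for Zfp57 was not made without the second CTCF-AID library, at 0.997.

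Germline genes moved both ways. Of 22 tested, 7 were higher (Dazl, Taf7l, Asz1, Rhox5, Rhox13, Tuba3b and Ctcfl) and 3 lower (Tdrd12, Sycp3 and Tex101). The median was 0.55, and the shares over all genes tested were 5.4% higher and 10.2% lower. Dazl, an RNA-binding protein gene of germ cells, had 47.2 and 59.96 CPM in the CTCF-AID libraries and 163 and 179 CPM in the YF-AA libraries (3.16-fold, adjusted p = 5.1e-09). Tdrd12, a piRNA pathway gene, had 60.7 and 71.9 CPM in the CTCF-AID libraries, 8.68 and 8.68 CPM in the YF-AA libraries and 59.2 and 67.5 CPM in the RAD21-AID controls (7.77-fold lower, adjusted p = 6.1e-10). It was low in the YF-AA and, at 15.2 and 16.6 CPM, in the stranded ΔN/ΔC libraries. Against the stranded controls, 5 of the 7 higher calls were made, without Rhox5 and Rhox13, and 1 of the 3 lower ones, since Sycp3 was not called and Tex101 was not tested. Taf7l and Rhox13 were also not called by DESeq2 nor without the first CTCF-AID library, Taf7l not without the first YF-AA library and Rhox13 not without the second.

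Clustered protocadherins and Hox genes lie in gene clusters in which CTCF sites choose promoters or set domain borders. The 21 tested protocadherins, adhesion genes of neurons, were all of the gamma cluster. None was called, with a median of 0.40, and the sum over the list was 1943 and 2036 CPM in the CTCF-AID and 2599 and 2624 CPM in the YF-AA libraries. Their transcripts share exons, so their counts are not independent. Of 14 tested Hox genes, 4 were higher and 7 lower, beside 5.4% and 10.2% of all genes tested, with a median of -0.75. Among called genes the direction differed in part between clusters, which was not tested. The higher ones included Hoxa3, Hoxa10 and Hoxd3, and the 6 called genes of the Hoxc cluster (Hoxc4 and Hoxc8 to Hoxc12) were lower with Hoxb13. Hoxa10 had 0.647 and 0.756 CPM in the CTCF-AID libraries and 7.44 and 13.2 CPM in the YF-AA libraries, and Hoxc9 had 8.62 and 10.2 CPM in the CTCF-AID and 1.74 and 2.37 CPM in the YF-AA libraries. The YF-AA libraries lay above the CTCF-AID ones for Hoxa10 and below them for Hoxc9. Each of these genes lay below the count minimum in its lower group, so the filter largely set its direction in advance. Against the stranded controls, 3 of the 4 higher and 2 of the 7 lower calls were made. Among polycomb and trithorax genes, 3 of 27 were higher (Epop, Pcgf5 and Cbx8), beside 5.4% of all genes tested, and none lower, with a median of 0.08. None of these 3 calls held under every alternative. Cbx8 lost its call in 8 of 14, DESeq2 and the stranded controls among them, Epop without the second CTCF-AID library (log2 difference 0.97) and Pcgf5 without the second YF-AA library (0.89).

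Clustered histone genes, which supply new chromatin in S phase, were called in 1 direction. Of 54 tested, 17 were higher in the YF-AA line and none lower, with a median of 0.71. The linker histone gene Hist1h1d had 56.6 and 55.6 CPM in the CTCF-AID libraries and 134 and 145 CPM in the YF-AA libraries (2.45-fold, adjusted p = 8.5e-09), and Hist1h1c 65.02 and 68.5 CPM in the CTCF-AID and 144 and 144 CPM in the YF-AA libraries. The sum over the list was 650 and 634 CPM in the CTCF-AID, 1186 and 1208 CPM in the YF-AA and 584 and 486 CPM in the first RAD21-AID libraries. The YF-AA sums were the highest of the 3 lines. Of the 17 calls, 6 were made against the stranded controls, of which the second was the higher one for all 17 genes. Near-identical histone genes may share reads, so single members are uncertain.

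Other genes of proliferation and growth were mostly not called. Of 32 tested cell cycle and growth genes, 29 were not called, with a median of 0.00, and 15.6% of all genes tested were called. Myc, a driver of growth, had 5.39 and 4.08 CPM in the CTCF-AID libraries and 25.3 and 25.2 CPM in the YF-AA libraries (5.22-fold, adjusted p = 1e-07), while its paralogue Mycl had 17.6 and 18.2 CPM in the CTCF-AID and 6.199 and 7.89 CPM in the YF-AA libraries (2.498-fold lower). Both calls held under all 15 alternatives tested for single genes. None of 30 ribosome biogenesis genes was called, with a median of 0.17, and of 85 ribosomal protein genes 1 was lower, Rpl3l, with a median of -0.01. DESeq2 did not call Rpl3l, nor was it called against the stranded controls.

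Of 24 tested targets of p53, 5 were higher (Perp, Ddit4l, Fas, Dcxr and Bbc3) and 1 lower (Cdkn1a), with a median of 0.54. Shares over all genes tested were 5.4% and 10.2%. Perp, a desmosomal gene with a role in apoptosis, went from 2.59 and 2.495 to 20.1 and 22.3 CPM (8.24-fold, adjusted p = 2.9e-08). Cdkn1a, the gene for the cell cycle inhibitor p21, went the other way, from 348 and 416 to 166 and 172 CPM (2.29-fold lower, adjusted p = 4.1e-08), and was not called against the stranded controls, where its log2 difference was -0.99. Fas was not called there either, nor with all 4 CTCF-AID controls. Without the second YF-AA library 3 of the list were higher instead of 5.

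Several lists held few or no calls, where 15.6% of all genes tested were called. The immediate early genes and the short list of aryl hydrocarbon receptor targets, also given here, held a larger share. None of 23 cholesterol synthesis genes and none of 20 enhancer cofactor genes was called, with medians of 0.26 and 0.03. Of 22 genes of ATF4 and stress, Ddit4 was higher, and of 14 immediate early genes Junb was higher and Fosl2, Jund and Klf6 were lower. Fosl2 and Jund were not called against the stranded controls, and Ddit4 was not called without the first CTCF-AID or without the second YF-AA library. Of 5 tested targets of the aryl hydrocarbon receptor, Tiparp was higher and Cyp1a1 lower, but the call for Tiparp ended against the stranded controls and that for Cyp1a1 without the second YF-AA library. Of 13 genes that the study used as examples of promoters activated by CTCF, Mrpl23 was lower (7.62 and 9.38 CPM in the CTCF-AID and 5.45 and 3.55 CPM in the YF-AA libraries, adjusted p = 0.01) and 12 were not called, with a median of -0.07. That call was lost in 6 of 15 alternatives, among them DESeq2, the stranded controls and the fits without the second library of either line. Neither of the 2 examples of promoters repressed by CTCF was called, with a median of 0.69. The study chose these examples with data of this series that include the CTCF-AID controls, so the lists are not independent of them.

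**Figure D5:**
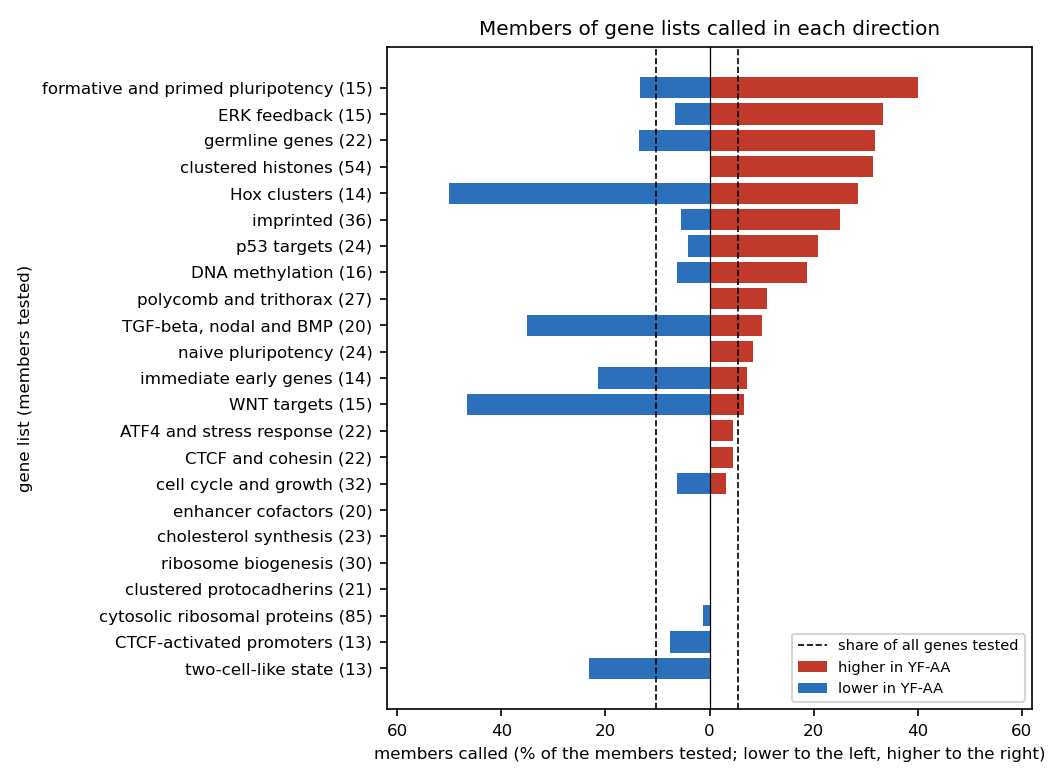
Members of each gene list called higher (red, to the right) and lower (blue, to the left) in the YF-AA line, in percent of the members tested, whose number stands in brackets. Dashed lines mark the shares of all genes tested, 5.4% higher and 10.2% lower. Among others, bars of formative, histone, imprinted, ERK feedback, germline and p53 genes reach past the right line. Those of WNT targets, TGF-beta and two-cell-like genes, among others, reach past the left one. Bars of Hox genes reach past both lines, while ribosome biogenesis and protocadherin genes have no bar.

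Both lines had the markers of naive mESCs, and markers of other cell types summed to less. All 12 naive markers were tested and summed to 5407 and 5453 CPM in the CTCF-AID and 5329 and 5604 CPM in the YF-AA libraries. Of the 21 endoderm markers 12 were tested and 3 were higher, Gata6, Dab2 and Col4a1, with sums over all 21 of 552 and 627 CPM in the CTCF-AID and 566 and 552 CPM in the YF-AA libraries. Gata6, a factor of primitive endoderm, had 2.66 and 2.72 CPM in the CTCF-AID and 11.7 and 13.6 CPM in the YF-AA libraries (4.67-fold, adjusted p = 3.4e-06). Trophoblast markers summed to 129 and 143 CPM against 163 and 183 CPM. Of 9 tested, Eomes, a factor of trophoblast and endoderm, was higher and Cdx2, Elf5, Krt7 and Plet1 were lower. Of these lower calls only that for Plet1 was made against the stranded controls, where Elf5 was not tested, and Col4a1 was not called there either. Elf5 and Krt7 also lost their calls without the second CTCF-AID library, and Elf5 without the second YF-AA library. Mesoderm markers summed to 24.0 and 29.9 CPM against 43.4 and 51.0 CPM, with Evx1 and Kdr, a receptor of VEGF, higher and T lower. Neural markers summed to 43.1 and 43.2 CPM against 38.4 and 33.5 CPM, with Pax6 higher and Nes lower, and fibroblast markers to 18.4 and 13.2 CPM against 13.1 and 18.2 CPM, with Thy1 lower. Fabp7 of the neural, Msgn1 of the mesoderm and Lum of the fibroblast markers had no count in any of the 4 libraries. The part of other cell types in the called genes was not tested.

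The promoters of called genes were searched for the core of the CTCF motif. Of 10909 tested genes whose start matched a RefSeq promoter of 300 bases, 317 (2.91%) held it on either strand, as the letters CCA, any 2 bases, AG, any 2 bases and GGC. The share was 3.57% of the higher genes (20 of 561) and 2.54% of the lower ones (26 of 1023), and 2.43% over every promoter of the table. Among expressed genes it was 5.03% of the higher ones (9 of 179) and 3.06% of the lower ones (7 of 229), beside 2.98% of all 6971. The motif as searched is loose, since any base was allowed at several positions. It is held by 3 named genes, and 50 bases around it are shown because it is a loose form of the core that CTCF recognises. They are given on the strand of the gene, from GRCm38.p6, at chr6:18109136-18109185 (minus strand) for Asz1, chr11:108920195-108920244 (plus strand) for Axin2 and chr17:50293644-50293693 (minus strand) for Dazl. Capitals mark the motif, which lies on the opposite strand in Asz1 and Dazl:
Asz1: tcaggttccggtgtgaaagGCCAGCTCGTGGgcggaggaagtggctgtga
Axin2: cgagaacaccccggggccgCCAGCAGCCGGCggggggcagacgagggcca
Dazl: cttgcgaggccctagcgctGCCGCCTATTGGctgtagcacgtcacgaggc
Of the 3 genes, Asz1 and Dazl were higher and Axin2 was lower in the YF-AA line, so both directions occurred among them. A match of letters does not show binding.

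Among expressed genes, medians by gene length differed little beside those of another pair of lines. Over expressed genes the median log2 difference went from -0.07 for those of 5 to 20 kb to 0.21 for those of 100 to 200 kb. In the comparison of the RAD21-AID with the CTCF-AID controls the same medians were -0.29 and 0.72. The share of calls did vary with length over all genes tested. For genes of 5 to 20 kb, 3.03% were higher and 12.3% lower in the YF-AA line. For those of 100 to 200 kb the shares were 10.9% and 7.55%, and for those over 200 kb 13.1% and 9.88%. Genes that overlap another gene on the opposite strand over at least 10% of their length made up 6.91% of the genes tested and 6.29% of those called.

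Genes that were higher in the YF-AA line were also looked up after loss of RAD21, in 12 treated and 12 control libraries of RAD21-AID mESCs, none of which entered the comparison of lines. That comparison called 133 genes (0.846%), 41 higher (0.261%) and 92 lower (0.585%). Of the 804 higher genes tested there, 34 fell by at least 2-fold (4.23%), beside 78 of 15179 genes tested in both (0.514%), and 5 rose (0.622%, beside 0.217%). Those that fell included Spry4, Inhbb, Etv4, Dusp6, Id3, Peg10, Evx1, Kdr, Porcn and Tiparp. Spry4 fell by 4.25 on the log2 scale after loss of RAD21 (adjusted p = 8.8e-50), and Inhbb by 2.88 (adjusted p = 8.1e-26). Peg10 fell by 1.10 (adjusted p = 3.8e-26). Of the 1407 lower genes tested there, 10 fell (0.711%) and 17 rose (1.21%), among the latter Htr5a. These counts are descriptions, and no test of the overlap was made. After loss of CTCF in the stranded CTCF-AID libraries, edgeR called none of 14600 genes, with 554 at an unadjusted p under 0.05, and DESeq2 called 99. With the replicate block edgeR called 390, so the number depended on the fit, and the called genes were not set beside the lines here.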

How the data were processed

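The authors deposited 1 table of raw read counts per representative transcript, over the whole gene body (exons and introns) of GENCODE M25 transcripts on mm10. Per the study's methods and the submitters' processing notes, reads were trimmed with Cutadapt, aligned with bwa, filtered for mapping quality with SAMtools 1.4, cleared of rRNA and tRNA reads with Bedtools and counted with HTSeq. Whether strand was used in counting is not given in the sources used here, so reads of overlapping genes may be shared. Names, positions and lengths were taken here from another release, GENCODE M21. Of 27665 transcripts, 27296 matched it with their version and 159 without it. A further 6 columns of counts over the first part of genes were not used.

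Groups came from the sample titles. Deposited counts were tested with edgeR 4.0.16 (TMM, quasi-likelihood F test, R 4.3.3, limma 3.58.1), keeping genes with a mean count above 20 in either group, with Benjamini-Hochberg adjustment over all of them. The median log2 difference of expressed genes, 0.04, was subtracted from each difference. Printed CPM come from 1 TMM normalisation over all mESC libraries, so their ratio can differ slightly from the fitted fold. SE is the fitted log2 difference over the square root of F. Counting limits (3 counts per library) cover counting error only. The script was tested on simulated data.

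Named genes were the 10 called expressed genes with the largest increase and the 10 with the largest decrease whose groups did not overlap, the 5 largest in each direction among all called genes, called members of the lists, Ctcf and the main cohesin genes in every case, and the 5 largest of chromosomes Y and 16, whose medians stood furthest from 0. Other genes named, the kallikreins among them, were chosen after their values were seen. The members, lists and tests were chosen with earlier results of these data known. Alternatives covered DESeq2 1.42.0, normalisation, filters, control libraries, the replicate block and each library left out. Some called list members are not reported here by name.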

Additional observations from a re-analysis of the deposited data

How the results depend on the processing

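Of the counts of called genes, most alternatives moved none by over 1.5 times: DESeq2 gave 778 higher and 1200 lower genes, RLE size factors 845 and 1604, no count minimum 1010 and 1842, and mitochondrial transcripts kept in 823 and 1624. A mean count above 100 gave 508 higher and 823 lower genes, on 12054 genes tested. Of the settings tried, the stranded controls alone turned the balance of directions over all genes tested. Among expressed genes, 292 higher and 336 lower in the main fit, the balance also turned in other settings. Without the median subtracted 323 were higher and 304 lower, and with mitochondrial transcripts kept 272 and 270. The stranded controls gave 1438 higher and 832 lower genes (569 of the higher ones expressed), so that 36.7% of calls were lower instead of 65.5%, and shared 1144 of the 2448 calls with the same direction. All 4 controls gave 524 and 835, with 1261 calls shared. The cause was not tested. Leaving out each library in turn gave 719 to 928 higher and 1351 to 1655 lower genes, and 283 to 312 and 307 to 366 among expressed genes. The stranded against the non-stranded controls gave 709 to 2992 calls in the same way. The replicate numbers did not pair the samples, since deviations of same-numbered libraries correlated with r = 0.0077 over 15653 genes, and a fit with the replicate block gave 854 higher and 1597 lower genes. Loss of CTCF in the stranded libraries gave 99 calls with DESeq2 and 390 with the replicate block, against 0, and loss of RAD21 gave 628 with every gene that had any count, against 133. The median of chromosome 16 was 0.53 over expressed genes alone. The sign turned for Nipbl at -0.12 and Stag2 at -0.025 with the stranded controls, for Nipbl at -0.015 with all 4 controls, and for Rad21, which ranged from -0.0081 to 0.032 as each CTCF-AID library was left out. None of these 3 genes was called. Of 149 named called genes, 80 were called under every one of the 15 alternatives in which they were tested (some were not tested in all 15) and 95 against the stranded controls. The first YF-AA library, with 4027449 counts, limits what can be said of genes below about 3 CPM.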
